A study of Mus musculus with 6 samples.

Results

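Genes of DNA replication were compared between mouse osteosarcoma cell lines and cultured mouse osteoblasts. The 35 genes were chosen by their role in copying DNA, from the loading of origins to the packing of new DNA, and with earlier results of these data known, so their counts are no independent evidence. All 35 were measured among the 19938 genes on the arrays. For genes with more than 1 probe set, the brightest on average was taken. The genes cover 7 steps: origin licensing (3 genes), the core of the helicase (6), helicase activation and origin firing (7), polymerases and primase (5), the sliding clamp, its loader and the joining of Okazaki fragments (6), nucleotide supply (5), and histone supply with chromatin assembly (3).

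Each of 6 samples was hybridised to 1 Affymetrix Mouse Gene ST array, and values are log2 expression. The 3 osteosarcoma lines, OS_493H, OS_494H and OS_716H, were derived from separate primary tumours of C57Bl6 mice with Rb fl/fl and p53 fl/fl alleles and an Osx-Cre+ transgene. In this model Cre is driven by the promoter of Osterix (Sp7), a transcription factor of the osteoblast lineage. The donor of OS_493H is labelled female, aged 188, with the tumour in the hip, that of OS_494H male, aged 190, also hip, and that of OS_716H female, aged 226, tibia, with no unit of age in the labels. The 3 osteoblast samples were KUSA4b10 cells, also of strain C57Bl6, kept for 21 days after confluence in medium with 50 ug/ml ascorbate. They are called osteoblast cultures 1 to 3. They carry no labelled change of Rb or p53, and all 3 are 1 cell line, so the spread between osteoblast lines was not measured. Their titles carry the tags Ex1, Ex2 and Ex3, which are not explained and may or may not mark separate experiments. If they do not, p-values in part measure technical spread. The deposited treatment text is the same for all 6 samples but names only the KUSA4b10 cells, so tumour origin, loss of Rb and p53, growth state and differentiation state cannot be told apart in any difference below.

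In the label checks, Rb1, 1 of the genes deleted in the model, was lower in the lines, at 9.61 ± 0.32 against 10.67 ± 0.01 in the cultures (SD, n = 3 each, log2 difference -1.05, limma adjusted p = 0.00427). Where its probes lie relative to the floxed part was not used here, so this checks the labels only in part. OS_716H, labelled female, had Xist at 5.50 and the Y-linked gene Eif2s3y at 10.11, against 12.62 and 4.08 in the female line OS_493H and 5.31 and 9.96 in the male line OS_494H. Its sex label therefore does not match its transcripts, and counts are given without it as well. All 3 cultures were low in both genes, with Xist at 5.57 to 5.79 and Eif2s3y at 4.10 to 4.14, a pattern seen in no line. Of 8 measured osteoblast markers, 4 were called lower in the lines and none higher, where 11.4% of all genes were lower and 13.2% higher. The 4, named after their values were seen, were Ibsp (log2 difference -6.16), Phex (-4.73), Dmp1 (-4.36) and Pth1r (-1.71). Sp7 (adjusted p = 0.141) and Col1a1 (adjusted p = 0.893) were not called, and their groups overlapped. Sp7 was at 7.64, 8.25 and 9.04 in the lines and at 9.13, 10.50 and 8.91 in the cultures, and Col1a1, the main collagen of bone, lay between 12.81 and 13.55 in the lines and between 12.98 and 13.77 in the cultures. All 10 adipocyte markers were called lower in the lines, against 11.4% of all genes. Their mean log2 level over the list was 7.82 to 8.29 in the lines and 10.95 to 11.71 in the cultures. Of 6 blood cell and 4 endothelial markers none passed the test by limma, where 24.6% of all genes did. An unadjusted p under 0.05 in that test was found for 1 and 0 of them, and for 7121 of all 19938 genes. In 2 blood cell markers, Csf1r and Cd79a, each line lay above each culture, as in 20.5% of all genes. The blood cell and endothelial list means were 6.45 to 6.63 and 6.52 to 7.19 in the lines, against 6.51 to 6.58 and 6.48 to 6.54 in the cultures. Tek, an endothelial receptor, stood at 9.05 in OS_493H and at no more than 7.52 on the other arrays. The deposited values hold no call of absence. In bulk RNA, fewer cells that copy their DNA and less of a transcript in each cell cannot be told apart.

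A cell prepares to copy its DNA in G1 phase. The origin recognition complex, Cdc6 and Cdt1 load the ring of Mcm proteins onto origins, and kinases then turn this ring into a moving helicase by adding Cdc45 and the GINS complex. At the fork, DNA polymerase alpha with primase starts each strand, polymerase epsilon extends the leading strand and polymerase delta the lagging strand, held by the clamp Pcna. Many of these genes are transcribed at the start of S phase by E2F factors, which Rb-family proteins hold in check in resting cells.

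All 35 replication genes rose in the osteosarcoma lines (limma, adjusted p under 0.05 by Benjamini-Hochberg over the 19938 genes). Of all genes 13.2% were called higher, 11.4% lower and 24.6% in either direction. Partner subunits outside the 35 did not all rise. The median log2 difference was 1.56, a 2.94-fold rise, with a range of 0.50 to 2.66, where the median over all genes was -0.02. In 32 of the 35 the rise was at least 2-fold, against 4.07% of all genes, and 33 passed an adjusted p of 0.01, against 6.99% of all genes. For all 35, each of the 3 lines lay above each of the 3 cultures, a separation seen in this direction for 20.5% of all genes. The gap between the lowest line and the highest culture had a median of 1.16 log2 units and ran from 0.23 to 1.95. Without OS_716H all 35 genes were called higher, as were 2796 of all 19938 genes, and the median difference of the 35 was 1.71.

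**Figure D1:**
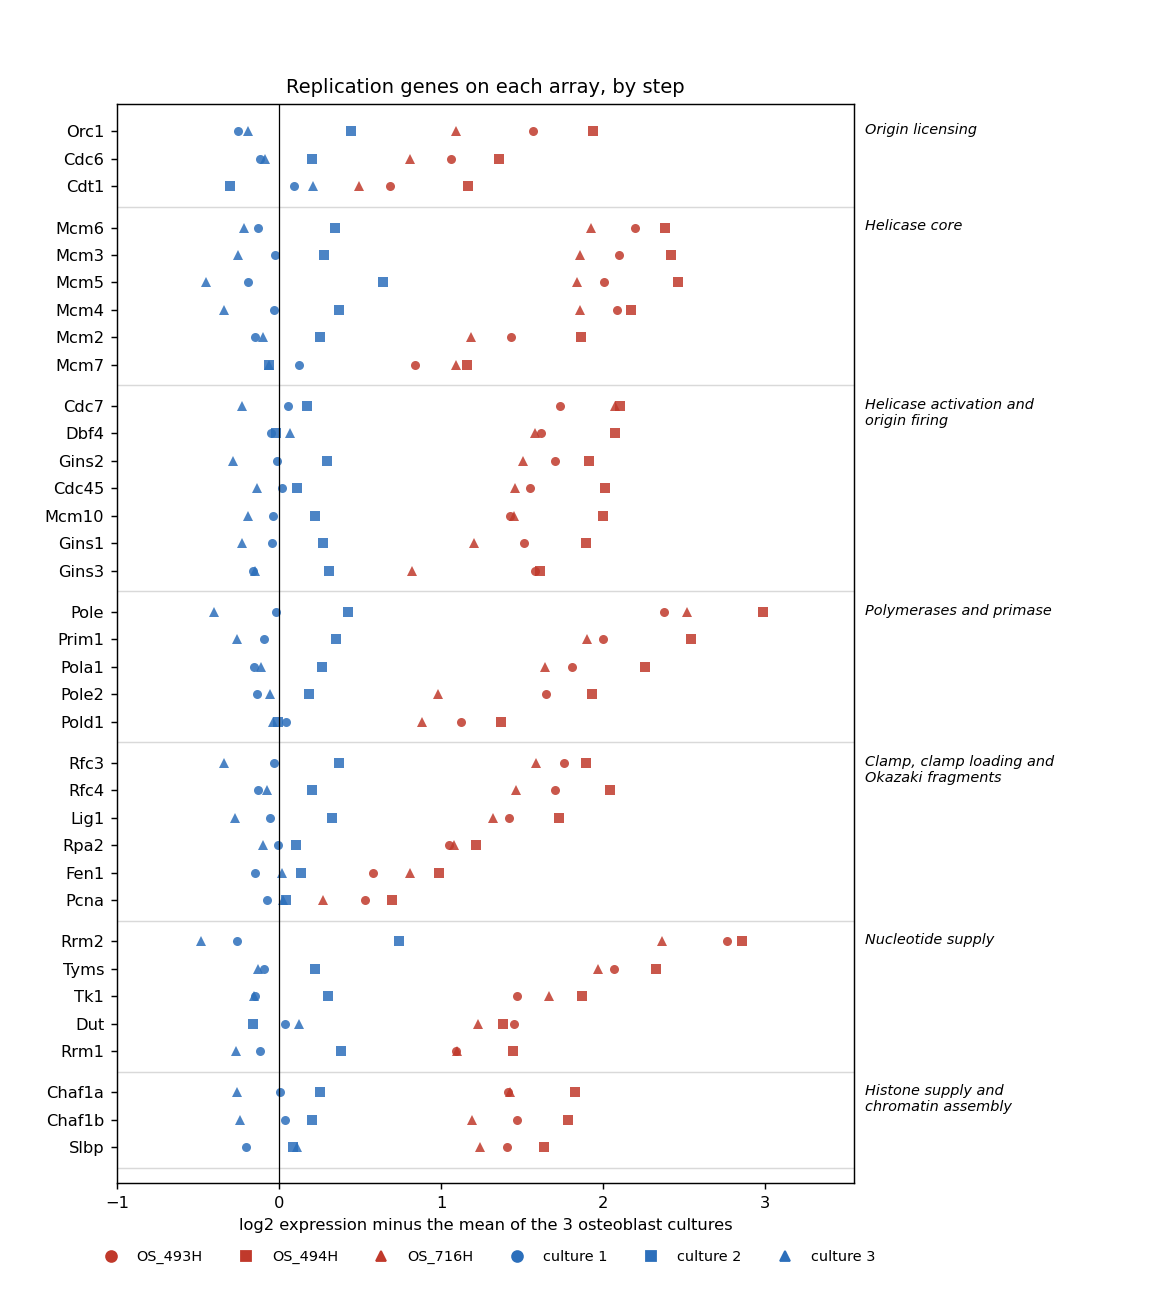
Log2 expression of the 35 replication genes on each array, as the difference from the mean of the 3 osteoblast cultures (horizontal axis), with genes grouped by step and sorted by difference. Red points are the osteosarcoma lines and blue points the cultures. Every red point lies to the right of every blue point of the same gene, with the smallest gap for Pcna (0.23) and the largest for Pole (1.95).

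The promoters of these genes were searched for letters of motifs linked to the cell cycle. The RefSeq promoter table of GRCm38.p6, which covers 250 bases before to 50 bases after each annotated start, held 31 of the 35 genes, and Mcm4, Gins1, Gins2 and Pole were not in it. Searched on both strands, the E2F letters TTTNNCGC were found in 14 of the 31 genes (45.2%), against 7.55% of the 15614 genes of the array with a promoter in the table. The CCAAT box was found in 18 genes (58.1%, against 41.7%), and the CHR letters TTTGAA, a motif linked to genes of G2 and M phase, in 6 (19.4%, against 17.3%). E2F letters and a CCAAT box stood in the same promoter for 8 genes (25.8%, against 3.07%). The median log2 difference in expression was 1.53 for the 14 genes with E2F letters and 1.56 for the 17 without, so the 2 medians were nearly equal. All 3 licensing genes held E2F letters, and Mcm3, Mcm5, Mcm6 and Mcm7 held both E2F letters and a CCAAT box, where Mcm2 held a CCAAT box without them. Genes with more than 1 annotated start had more promoters searched. Counted by promoter, E2F letters stood in 38.9% of the 36 promoters of these genes, against 6.51% of the promoters of all genes on the array. A match of letters is not a measured binding site, and matches of different motifs may overlap.

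For 6 of the 7 steps, 1 promoter of the 35 genes is shown. It belongs to the gene of the step with the largest rise among those with E2F letters. Gins3 and Tyms were the only genes of their steps found with E2F letters, and Gins3 had the smallest rise of its step. E2F letters were chosen since E2F factors are the known regulators of many such genes. None of the 3 genes of the histone and chromatin step held them. The regions, in GRCm38.p6, are chr4:108579204-108579503, plus strand for Orc1, chr1:128359656-128359955, minus strand for Mcm6, chr8:95633309-95633608, plus strand for Gins3, chrX:93632106-93632405, minus strand for Pola1, chr5:151651159-151651458, minus strand for Rfc3 and chr5:30073576-30073875, minus strand for Tyms. Sequences run 5′ to 3′ on the strand of the gene, and capitals mark the E2F letters on either strand. Counted from the start, the matches begin at -27 in Orc1, at -110, -106 and -47 in Mcm6, at -41 in Gins3, at -138 in Pola1, at -10 and 1 in Rfc3 and at 42 in Tyms, where 1 is the first transcribed base. The first 2 matches of Mcm6 overlap.
Orc1: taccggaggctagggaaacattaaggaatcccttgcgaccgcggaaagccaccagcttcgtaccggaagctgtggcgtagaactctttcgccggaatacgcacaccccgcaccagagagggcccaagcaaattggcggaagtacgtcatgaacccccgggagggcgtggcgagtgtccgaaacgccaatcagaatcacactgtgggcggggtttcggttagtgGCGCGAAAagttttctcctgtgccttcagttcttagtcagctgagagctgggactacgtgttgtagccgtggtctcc
Mcm6: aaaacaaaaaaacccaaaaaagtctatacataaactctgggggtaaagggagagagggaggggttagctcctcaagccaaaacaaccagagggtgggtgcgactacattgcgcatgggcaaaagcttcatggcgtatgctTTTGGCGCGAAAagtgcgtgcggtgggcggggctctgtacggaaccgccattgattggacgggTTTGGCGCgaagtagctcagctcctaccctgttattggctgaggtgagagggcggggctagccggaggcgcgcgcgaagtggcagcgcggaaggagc
Gins3: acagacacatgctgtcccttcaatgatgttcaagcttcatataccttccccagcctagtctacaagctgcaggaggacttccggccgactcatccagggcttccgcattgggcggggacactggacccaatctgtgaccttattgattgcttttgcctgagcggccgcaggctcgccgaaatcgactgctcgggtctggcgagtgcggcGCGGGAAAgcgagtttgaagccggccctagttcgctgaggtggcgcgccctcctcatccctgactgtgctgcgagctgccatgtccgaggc
Pola1: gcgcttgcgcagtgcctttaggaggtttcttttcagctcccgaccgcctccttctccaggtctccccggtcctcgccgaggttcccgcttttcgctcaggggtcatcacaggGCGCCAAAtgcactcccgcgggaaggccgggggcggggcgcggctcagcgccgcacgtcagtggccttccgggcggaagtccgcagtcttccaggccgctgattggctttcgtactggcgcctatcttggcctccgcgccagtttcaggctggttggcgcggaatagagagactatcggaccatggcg
Rfc3: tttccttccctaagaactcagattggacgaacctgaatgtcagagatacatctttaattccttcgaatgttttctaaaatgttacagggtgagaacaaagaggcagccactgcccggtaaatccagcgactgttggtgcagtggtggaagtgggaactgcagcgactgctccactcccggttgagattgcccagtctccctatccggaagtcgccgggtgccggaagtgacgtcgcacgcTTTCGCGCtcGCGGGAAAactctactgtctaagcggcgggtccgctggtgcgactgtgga
Tyms: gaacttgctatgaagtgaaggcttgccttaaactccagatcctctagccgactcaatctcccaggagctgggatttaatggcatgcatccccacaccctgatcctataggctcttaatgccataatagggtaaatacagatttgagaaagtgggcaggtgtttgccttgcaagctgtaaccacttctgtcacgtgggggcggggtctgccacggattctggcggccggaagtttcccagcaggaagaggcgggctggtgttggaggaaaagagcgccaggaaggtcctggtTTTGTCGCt

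**Figure D2:**
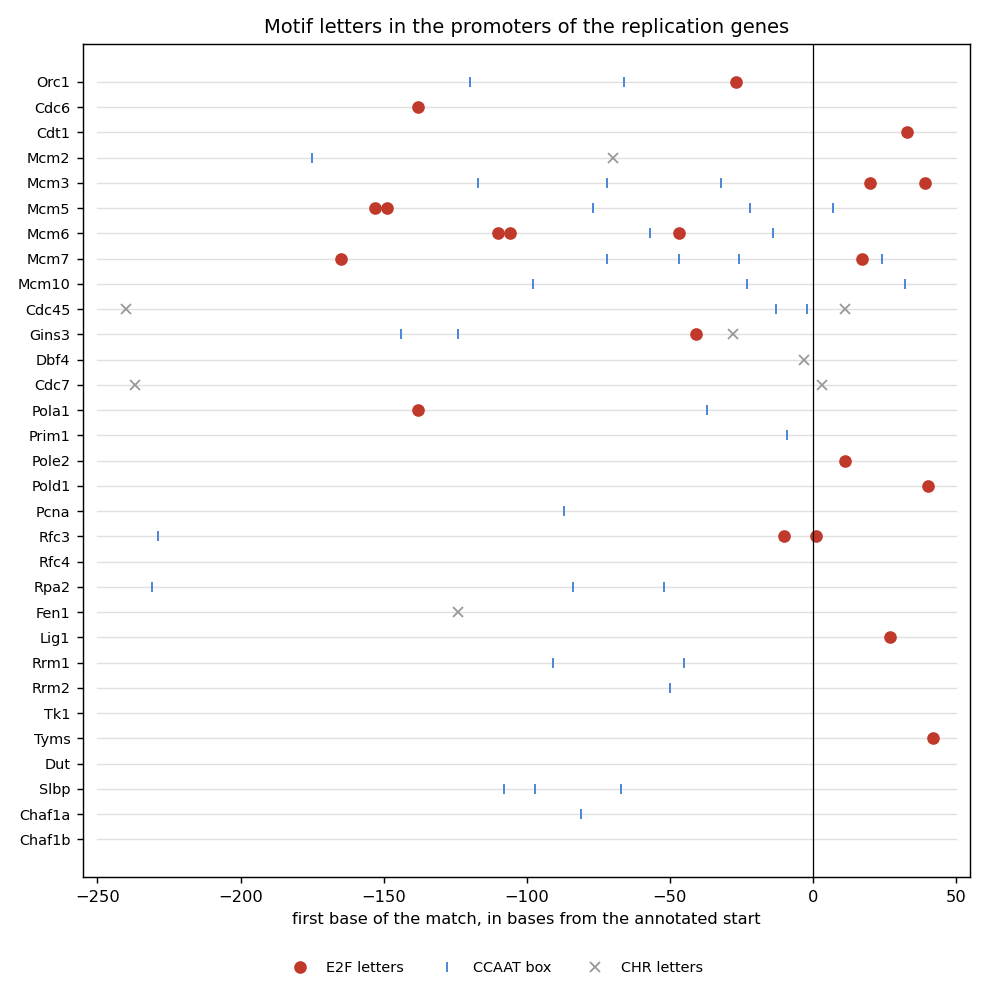
Positions of motif letters in the promoters of the 31 replication genes found in the table, in bases from the annotated start (horizontal axis), with genes in the order of the steps. Red circles are E2F letters, blue bars CCAAT boxes and grey crosses CHR letters, and genes with several annotated starts have all their promoters on 1 line. E2F letters appear in 14 genes, both before and after the start.

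Origin licensing genes had the lowest median log2 difference of the 7 steps, 1.07 over 3 genes, though differences between steps were not tested. Orc1, the subunit of the origin recognition complex whose amount changes through the cell cycle, was at 8.33, 8.70 and 7.85 in OS_493H, OS_494H and OS_716H, against 6.51, 7.20 and 6.57 in osteoblast cultures 1, 2 and 3. This was a 2.89-fold rise (log2 difference 1.53 ± 0.27 SE, adjusted p = 0.00765), with the top line OS_494H and the top culture 2. Cdc6, an ATPase that loads the Mcm ring, was at 8.74, 9.03 and 8.48 in the lines and at 7.56, 7.88 and 7.59 in the cultures, a 2.11-fold rise (1.07 ± 0.16, adjusted p = 0.00441). Cdt1, its partner in loading, which cells destroy once S phase begins, was at 10.26, 10.74 and 10.07 in the lines and at 9.67, 9.27 and 9.78 in the cultures. The groups did not overlap, with a gap of 0.28, and the rise was 1.72-fold (0.78 ± 0.21, adjusted p = 0.0349). This call was lost on leaving out OS_493H or any 1 culture (adjusted p = 0.0619 to 0.0974). Cdt1 was also the gene in which culture 2 lay furthest below the other cultures, by 0.45 against their mean.

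The other subunits of the origin recognition complex moved unequally. Orc6 rose 2.09-fold (log2 difference 1.06 ± 0.14 SE, adjusted p = 0.00298) and Orc5 1.40-fold (0.48 ± 0.08, adjusted p = 0.00775). Orc2, Orc3 and Orc4 did not pass the test, with differences of 0.17 ± 0.17, 0.11 ± 0.13 and -0.27 ± 0.15 (adjusted p = 0.534, 0.618 and 0.272). Their groups overlapped: Orc2 was at 10.03, 10.38 and 9.69 in the lines and at 9.87, 9.83 and 9.88 in the cultures. Without OS_494H the Orc2 difference was -0.0009.

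The 6 genes of the helicase core all rose, and 4 of them by more than 4-fold. Mcm6 was at 11.01, 11.19 and 10.74 in the lines, against 8.68, 9.15 and 8.60 in the cultures, a 4.49-fold rise (log2 difference 2.17 ± 0.18 SE, adjusted p = 8.41e-04). Mcm3 was at 10.20, 10.52 and 9.95 in the lines and at 8.07, 8.38 and 7.84 in the cultures, a 4.36-fold rise (2.13 ± 0.19, adjusted p = 9.52e-04). In both genes the gap between the groups was 1.58, several times the SD within either group. Mcm5 was at 11.003, 11.46 and 10.84 in the lines and at 8.81, 9.64 and 8.54 in the cultures, a 4.29-fold rise (2.10 ± 0.30, adjusted p = 0.00391). It had the largest error of the 6, and culture 2 lay 0.96 above the mean of cultures 1 and 3. Mcm4 was at 11.18, 11.27 and 10.95 in the lines and at 9.07, 9.47 and 8.76 in the cultures, a 4.11-fold rise (2.04 ± 0.19). Mcm2 was at 11.09, 11.52 and 10.84 in the lines and at 9.51, 9.91 and 9.56 in the cultures, a smaller rise of 2.82-fold (1.49 ± 0.19). Mcm7 had the smallest rise of the ring, 2.05-fold, at 11.22, 11.54 and 11.48 in the lines and at 10.50, 10.32 and 10.32 in the cultures (1.03 ± 0.11, adjusted p = 0.00153). Mcm7 differed from the other 5 also in order, since culture 2 was not the highest culture and OS_716H not the lowest line. The encoded proteins form a ring with 1 copy of each.

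The 7 genes that activate the helicase and fire origins rose by similar amounts, from 2.53- to 3.92-fold. Cdc7, the kinase that triggers origins, was at 8.45, 8.82 and 8.79 in the lines, against 6.77, 6.88 and 6.49 in the cultures (log2 difference 1.97 ± 0.15 SE, adjusted p = 6.31e-04). Its activator Dbf4 was at 10.50, 10.95 and 10.46 in the lines and at 8.83, 8.86 and 8.95 in the cultures, a 3.37-fold rise (1.75 ± 0.14, adjusted p = 7.60e-04). The cultures were close to each other for Dbf4 (SD 0.06), where the lines spread more (SD 0.27). Cdc45, which completes the active helicase, was at 9.70, 10.16 and 9.60 in the lines and at 8.17, 8.26 and 8.02 in the cultures, a 3.19-fold rise (1.67 ± 0.16). Mcm10, a factor needed to start unwinding, was at 9.33, 9.90 and 9.36 in the lines and at 7.87, 8.13 and 7.72 in the cultures, a 3.09-fold rise (1.63 ± 0.18). Of the GINS subunits, Gins2 was at 10.47, 10.68 and 10.27 in the lines and at 8.75, 9.06 and 8.48 in the cultures, a 3.27-fold rise (1.71 ± 0.17). Gins1, at 9.27, 9.65 and 8.96 in the lines and at 7.71, 8.03 and 7.53 in the cultures, rose 2.90-fold (1.54 ± 0.20). Gins3 had the largest spread over the lines in this step, at 9.24, 9.27 and 8.48, against 7.497, 7.97 and 7.51 in the cultures (1.34 ± 0.24, adjusted p = 0.00916). OS_716H lay 0.79 below OS_494H for Gins3 and still above each culture. Gins4, the remaining subunit, rose 1.52-fold (0.61 ± 0.07, adjusted p = 0.00238).

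Polymerase and primase genes rose between 2.18- and 6.18-fold. Pole, the catalytic subunit of the leading-strand polymerase epsilon, was at 10.48, 11.09 and 10.63 in the lines, against 8.09, 8.53 and 7.70 in the cultures. The rise was 6.18-fold (log2 difference 2.63 ± 0.24 SE, adjusted p = 0.0011), and the gap of 1.95 was the widest among the 35 genes. Its partner Pole2 was at 9.87, 10.16 and 9.20 in the lines and at 8.09, 8.41 and 8.17 in the cultures, a 2.87-fold rise (1.52 ± 0.24, adjusted p = 0.0056). Pole2 had the widest range over the lines among the 35 genes, 0.95. The small histone-fold subunits of the same enzyme differed less: Pole3 rose 1.78-fold (0.83 ± 0.11, adjusted p = 0.0027) and Pole4 did not pass the test (0.18 ± 0.07, adjusted p = 0.138).

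Prim1, the catalytic subunit of primase, which makes the RNA primers, was at 10.29, 10.83 and 10.19 in the lines and at 8.20, 8.65 and 8.03 in the cultures, a 4.43-fold rise (log2 difference 2.15 ± 0.22 SE, adjusted p = 0.00143). Pola1, the catalytic subunit of polymerase alpha, was at 9.73, 10.18 and 9.56 in the lines and at 7.77, 8.19 and 7.81 in the cultures, a 3.74-fold rise (1.90 ± 0.19, adjusted p = 0.0013). The accessory subunits of that complex also rose, Prim2 3.12-fold (1.64 ± 0.17) and Pola2 1.63-fold (0.70 ± 0.13). Pold1, the catalytic subunit of polymerase delta, was at 9.13, 9.38 and 8.89 in the lines and at 8.05, 8.001 and 7.97 in the cultures. Its rise of 2.18-fold (1.13 ± 0.13, adjusted p = 0.0018) was the smallest of the 5 members in this step. Pold2 rose 1.95-fold (0.96 ± 0.19, adjusted p = 0.0119), a call lost without culture 1 (adjusted p = 0.0552), and Pold3 did not pass (-0.24 ± 0.17, adjusted p = 0.399). Without OS_494H the Pold3 difference was -0.43 and passed (adjusted p = 0.0261).

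Pold4, the smallest subunit of polymerase delta, went the other way. It was at 10.38, 9.81 and 10.24 in the lines, against 10.85, 10.94 and 10.84 in the cultures, a 1.67-fold fall (log2 difference -0.74 ± 0.15 SE, adjusted p = 0.0136). All 3 lines lay below all 3 cultures, and OS_494H, the line with the highest level of nearly all of the 35 genes, was the lowest for Pold4. The call was lost without culture 1 (adjusted p = 0.0536).

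**Figure D3:**
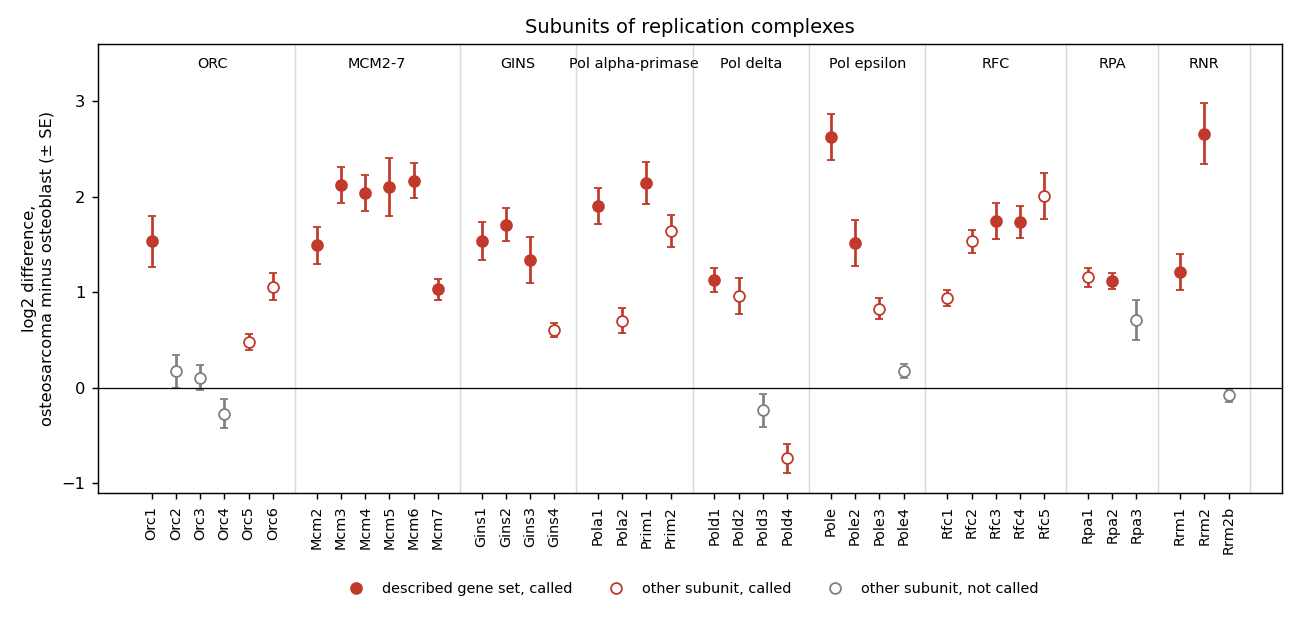
Log2 difference, osteosarcoma minus osteoblast, with its SE from limma (vertical axis) for each subunit of 9 replication complexes. Filled points are among the 35 genes, open points are their partner subunits, and grey marks genes that did not pass the test. The 6 Mcm genes all lie above 1, whereas Orc2, Orc3, Orc4, Pold3, Pole4, Rpa3 and Rrm2b are grey and Pold4 lies at -0.74.

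At the clamp and its loader the rises were uneven. Rfc3, a subunit of the ring that opens the clamp, was at 10.30, 10.44 and 10.13 in the lines, against 8.51, 8.91 and 8.20 in the cultures, a 3.36-fold rise (log2 difference 1.75 ± 0.19 SE, adjusted p = 0.00154). Rfc4 of the same ring was at 11.59, 11.93 and 11.35 in the lines and at 9.75, 10.09 and 9.81 in the cultures, a 3.33-fold rise (1.74 ± 0.16). The other loader subunits rose too, Rfc5 4.03-fold (2.01 ± 0.24), Rfc2 2.90-fold (1.54 ± 0.12) and the large subunit Rfc1 1.92-fold (0.94 ± 0.09). Pcna itself, the clamp, had the smallest rise of all 35 genes, 1.41-fold, at 12.76, 12.93 and 12.50 in the lines and at 12.16, 12.28 and 12.26 in the cultures (0.50 ± 0.12, adjusted p = 0.0242). The gap between its groups was 0.23. Its call was lost on leaving out OS_493H or any 1 culture (adjusted p = 0.0589 to 0.0962). A further Pcna probe set differed by 0.48 (adjusted p = 0.0291, adjusted over probe sets). Both are annotated to the same transcripts, and whether either reads a near-identical copy of the gene was not tested.

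Rpa2, of the complex that coats single-stranded DNA, had little spread in either group, at 9.85, 10.02 and 9.88 in the lines and at 8.79, 8.90 and 8.70 in the cultures. Its rise was 2.17-fold (log2 difference 1.12 ± 0.09 SE, adjusted p = 6.91e-04). Rpa1, the large subunit, rose 2.23-fold (1.16 ± 0.10), whereas Rpa3 missed the threshold (0.71 ± 0.21, adjusted p = 0.053). Rpa3 passed without OS_716H (adjusted p = 0.0109), among brighter genes (adjusted p = 0.0412) and with array weights (adjusted p = 0.013). It missed the threshold without OS_493H, OS_494H or any 1 culture (adjusted p = 0.0527 to 0.165). The mean of its probe sets gave a smaller difference of 0.55 (adjusted p = 0.0655). Lig1, the ligase that seals Okazaki fragments, was at 9.75, 10.06 and 9.65 in the lines and at 8.27, 8.66 and 8.06 in the cultures, a 2.81-fold rise (1.49 ± 0.18). Fen1, the nuclease that trims them, was at 8.75, 9.15 and 8.97 in the lines and at 8.01, 8.30 and 8.18 in the cultures, a 1.73-fold rise (0.79 ± 0.13, adjusted p = 0.00591). Pcna, Cdt1 and Fen1 were thus the only 3 of the 35 genes with rises below 2-fold.

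Nucleotide supply held the gene with the largest rise of all 35. Rrm2, the small subunit of ribonucleotide reductase made in S phase, was at 11.51, 11.60 and 11.11 in the lines, against 8.49, 9.48 and 8.26 in the cultures, a 6.33-fold rise (log2 difference 2.66 ± 0.32 SE, adjusted p = 0.00224). Culture 2 lay 1.11 above the mean of the other cultures, the widest such distance among the 35 genes, and still 1.63 below the lowest line. The large subunit Rrm1 was at 12.24, 12.59 and 12.24 in the lines and at 11.03, 11.53 and 10.88 in the cultures, a 2.32-fold rise (1.21 ± 0.19, adjusted p = 0.00516). Tyms, thymidylate synthase, was at 11.22, 11.48 and 11.12 in the lines and at 9.06, 9.37 and 9.02 in the cultures. Its 4.35-fold rise (2.12 ± 0.14, adjusted p = 4.85e-04) had the lowest adjusted p of the 35 genes. Dut, which removes dUTP and supplies the substrate of Tyms, was at 10.30, 10.23 and 10.07 in the lines and at 8.88, 8.69 and 8.97 in the cultures, a 2.56-fold rise (1.35 ± 0.10). Dut was the only gene of the 35 with its highest line value in OS_493H. Tk1, the thymidine kinase of the cytosol, was at 10.18, 10.58 and 10.38 in the lines and at 8.56, 9.02 and 8.56 in the cultures, a 3.18-fold rise (1.67 ± 0.16). A further Tk1 probe set, annotated to largely the same transcripts, differed by 1.98 (adjusted p = 4.35e-04, adjusted over probe sets).

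The counterparts of Rrm2 and Tk1 that serve cells outside S phase were not called higher. Rrm2b, the small reductase subunit induced by p53, was at 8.25, 8.19 and 8.25 in the lines and at 8.24, 8.33 and 8.34 in the cultures, with a log2 difference of -0.08 ± 0.07 (SE, adjusted p = 0.495). Tk2, the thymidine kinase of mitochondria, was at 8.96, 8.61 and 8.62 in the lines and at 9.33, 9.09 and 9.41 in the cultures, a 1.46-fold fall (-0.55 ± 0.13, adjusted p = 0.0269). This call was lost without OS_494H, OS_716H, culture 1 or culture 3 (adjusted p = 0.0589 to 0.101). Within each array, set against the culture mean, Rrm2 minus Rrm2b was 2.82, 2.98 and 2.42 in the lines, against -0.19, 0.71 and -0.52 in the cultures. Tk1 minus Tk2 was 1.78, 2.54 and 2.32 in the lines, against -0.21, 0.50 and -0.29 in the cultures. The changes of these contrasts, 2.74 and 2.21, had a two-sided exact permutation p of 0.1 each, the smallest that 3 arrays against 3 allow, so the test could not pass 0.05. These were the 2 contrasts tested, and p was not adjusted over them.

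**Figure D4:**
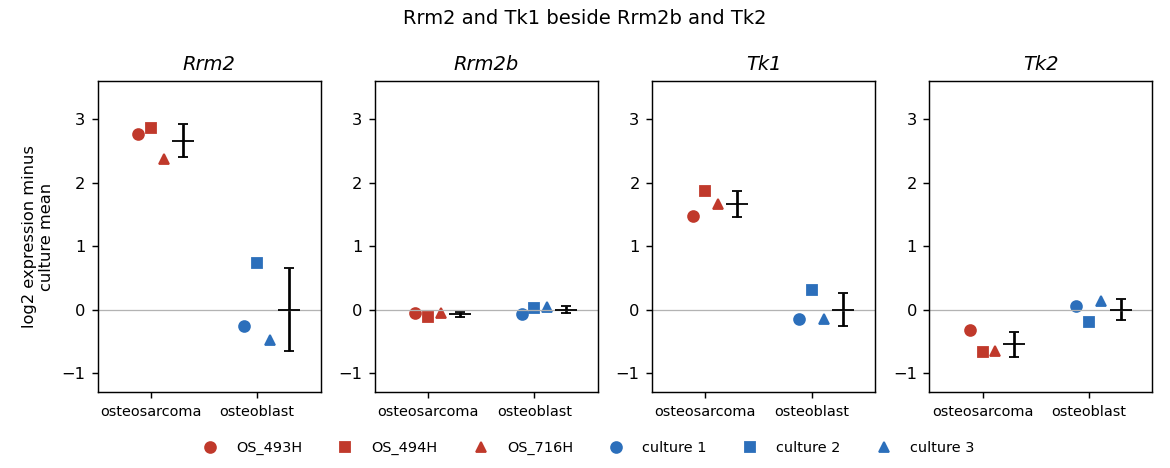
Log2 expression minus the culture mean (vertical axis) of Rrm2, Rrm2b, Tk1 and Tk2 on each array, with osteosarcoma lines in red and osteoblast cultures in blue. Black marks give the mean and SD of each group (n = 3). The groups are apart for Rrm2 and Tk1, overlap for Rrm2b, and are apart in the opposite direction for Tk2.

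The 3 genes of histone supply and chromatin assembly rose 2.69- to 2.94-fold. The 7 further chromatin genes counted below spread more widely, with log2 differences from -0.02 for Asf1a (not called) to 2.79 for Asf1b. Chaf1a, the large subunit of chromatin assembly factor 1, was at 9.51, 9.93 and 9.53 in the lines, against 8.11, 8.35 and 7.84 in the cultures (log2 difference 1.56 ± 0.17 SE, adjusted p = 0.00161). Its partner Chaf1b was at 10.24, 10.56 and 9.97 in the lines and at 8.81, 8.98 and 8.53 in the cultures (1.48 ± 0.18, adjusted p = 0.0022). Slbp, which binds the stem-loop of histone mRNAs, was at 10.48, 10.71 and 10.31 in the lines and at 8.87, 9.16 and 9.18 in the cultures (1.43 ± 0.13, adjusted p = 0.00114). A further Slbp probe set gave a difference of 1.41.

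Beyond the 35 genes, 57 of 58 further replication genes on a list of roles, also made with earlier results known, were measured. Of these 38 rose, against 13.2% of all genes, 2 fell and 17 did not pass, with a median log2 difference of 0.79. The 8 largest rises were those of the histone chaperone Asf1b (2.79 ± 0.32 SE, 6.90-fold), the topoisomerase Top2a (2.40 ± 0.29), the fork protein Wdhd1 (2.10 ± 0.23), Uhrf1 (2.09 ± 0.25), Rfc5, the deoxycytidine kinase Dck (1.98 ± 0.20), the maintenance methyltransferase Dnmt1 (1.91 ± 0.16) and the checkpoint mediator Clspn (1.67 ± 0.17). Asf1b was at 11.46, 12.01 and 11.005 in the lines and at 8.48, 9.24 and 8.38 in the cultures. The 2 that fell, where 11.4% of all genes fell, were Pold4 and Tk2. All 7 further activation factors rose, and so did 9 of 12 genes of the clamp and Okazaki fragments, 6 of 7 chromatin genes and 4 of 5 fork protection genes. Of 9 further licensing genes 4 rose, of 7 polymerase genes 4 rose and 1 fell, and of 10 genes of nucleotide supply and removal 4 rose and 1 fell.

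Among the lines, OS_494H had the highest value for 34 of the 35 genes, where it had the highest line value for 39.9% of all genes, and OS_716H had the lowest for 26 of 35, where it had the lowest for 32.8% of all genes. Averaged over the 35 genes, OS_493H lay 1.55 above the culture mean, OS_494H 1.87 and OS_716H 1.40, so the lines differed by less than the groups did. Among the cultures, culture 2 was highest for 29 of 35 genes, against 37.5% of all genes. Set against the culture mean, the 35 genes averaged -0.07, 0.23 and -0.16 in cultures 1, 2 and 3. There is 1 array per line and culture, so these differences between arrays have no test, and the genes are not independent of each other. The range over the lines had a median of 0.49 and that over the cultures 0.45.

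Marker lists were set beside these differences between arrays, and not all of them followed the same order. Markers of dividing cells, labelled G2 and M phase and including Mki67 and Ccna2, numbered 7 among the measured genes. All 7 were highest in OS_494H among lines and in culture 2 among cultures, against 39.9% and 37.5% of all genes. All 7 also rose, against 13.2% of all genes, with a median log2 difference of 2.51. Their mean against the culture mean was 2.31, 2.78 and 2.28 in the lines, against -0.31, 0.76 and -0.44 in the cultures. Culture 2 also had the highest osteoblast marker mean (0.45, against -0.11 and -0.34 in cultures 1 and 3) and the lowest adipocyte marker mean (-0.35, against 0.42 and -0.07). In the lines the osteoblast mean was -2.72, -2.65 and -2.002 and the adipocyte mean -3.00, -3.47 and -3.17. Among the lines the osteoblast mean was thus highest in OS_716H, the line with the lowest mean of the replication genes. The part of cell division, of fat-like cells and of osteoblast maturity in the rise of the replication genes was not tested. Without culture 2 the median difference of the 35 genes was 1.73, and 33 were called higher, as were 2086 of all 19938 genes.

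**Figure D5:**
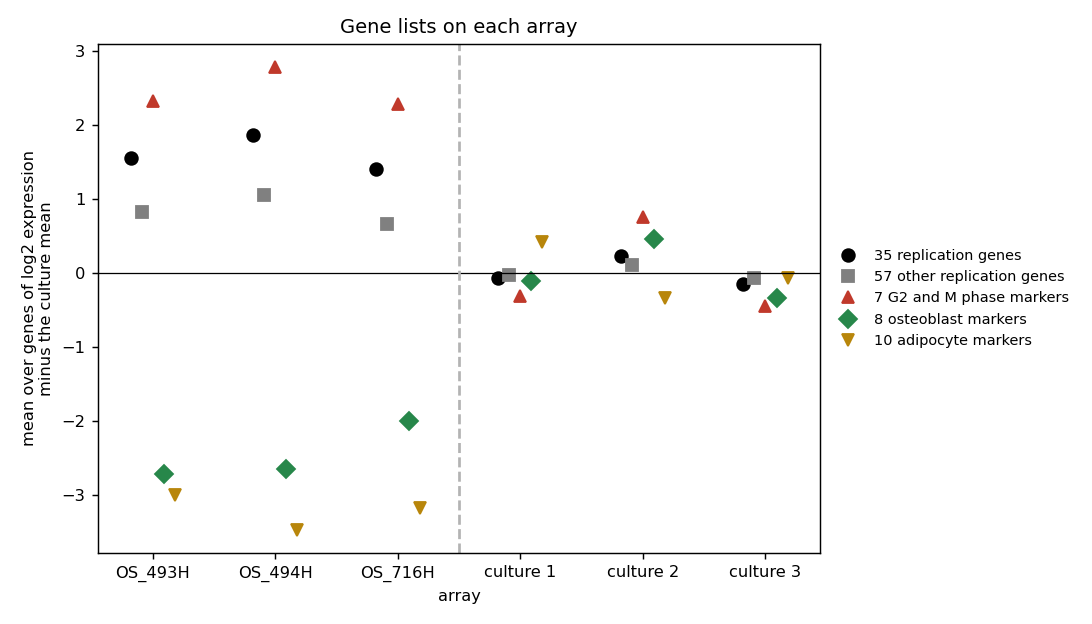
Mean over the genes of a list of log2 expression minus the culture mean (vertical axis), on each array, with the osteosarcoma lines left of the dashed line and the osteoblast cultures right of it. Black points are the replication genes, and red triangles are markers of dividing cells, labelled G2 and M phase. Both are highest in OS_494H among lines (1.87 and 2.78) and in culture 2 among cultures (0.23 and 0.76). Osteoblast and adipocyte markers lie below 0 in all 3 lines.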

How the data were processed

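Total RNA of 6 samples was hybridised to Affymetrix Mouse Gene ST arrays. The deposited log2 values of 35556 probe sets were made by the authors with RMA, per the submitters' processing notes, which name mm9. The RMA software is not given in the sources used here. This procedure equalises the probe distributions of the arrays and compresses large differences. Array medians were 7.45 to 7.58, and arrays have no read depth. Groups came from the sample titles. The platform annotation gave 21789 probe sets 1 symbol, 1621 several and 12146 none. Of the probe sets with 1 symbol, 21698 had their gene in the RefSeq table of GRCm38.p6. No batch information was used.

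All 19938 genes entered 1 two-sided fit by limma 3.58.1 under R 4.3.3 (functions lmFit and eBayes, no covariate), with Benjamini-Hochberg adjustment over all genes. Differences are osteosarcoma minus osteoblast. The fit was also run on simulated data with independent errors between arrays, which gives no support to the calls made here. The members, lists and tests were chosen with earlier results of these data known. Named genes are all members, partner subunits of their complexes, and the 8 largest rises and all falls among the other replication genes. Promoters shown had the largest rise per step among those with E2F letters. Alternatives were other scaling, moderation, weights, probe set rules and thresholds, and leaving out each array. Of the listed marker genes Runx2, Bglap, Spp1 and Ccnb1 were not analysed here. A planned comparison of the Rrm2 and Rrm2b proteins was not made.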

Additional observations from a re-analysis of the deposited data

How the results depend on the processing

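Of the 35 replication genes, 33 to 35 were called higher on leaving out any 1 array and none was called lower. Cdt1 and Pcna were the 2 that lost their calls, there and with cultures 1 and 3 averaged into 1 sample. All 35 kept their direction under every alternative. All kept their call under the alternatives in scaling, filter, trend, robust moderation, array weights and probe set choice. The filter kept genes whose larger group mean was above 7.53, the median of all values. Orc1 (6.76 in the cultures, 8.29 in the lines) and Cdc7 (6.71 and 8.68) passed it only through the lines. Their passing the filter is therefore no support for their rise. When spread was estimated separately in each group, with none shared across genes, 7 were called (Cdc7, Dut, Mcm3, Mcm6, Rpa2, Slbp and Tyms), and 5 and 0 of the other replication genes were called higher and lower, as were 213 and 199 of all genes; all 35 members had an unadjusted p under 0.05 there (largest 0.0474), as did 26.4% of all genes. With 3 arrays a group, such a test has few degrees of freedom. Leaving out 1 array gave 33 to 39 other replication genes higher and 0 to 3 lower, and 1533 to 2796 higher and 1211 to 2314 lower over all genes, lowest without culture 1. With cultures 1 and 3 as 1 sample, 0 other replication genes were lower, and 1606 and 1316 of all genes were higher and lower. At adjusted p under 0.01, 33 of the 35 and 31 others were higher, 0 others were lower, and 1394 and 1072 of all genes were called. At 2-fold or more, 32 of the 35 were higher, 21 others were higher and 0 lower, and 811 and 561 of all genes were called. Orc2 ran from -0.0009 without OS_494H, a reversal, to 0.35 without OS_716H. Rrm2 minus Rrm2b and Tk1 minus Tk2 kept their sign throughout. No paired analysis was made, since no label links a line to a culture. The number of arrays limits the precision, and RMA values carry no measure of signal over background.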
